A study of Mus musculus with 8 samples.

Results

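Erythroid and megakaryocyte transcription factor genes were followed in mouse embryos with a knockout of Runx1, the transcription factor gene needed for definitive blood formation. The 10 genes were Gata1, Gata2, Tal1, Lmo2, Klf1, Nfe2, Zfpm1, Ldb1, Gfi1b and Lyl1. They were taken by symbol from the 18193 genes that had a probe set of their own on the array, and each was read from its probe set with the highest mean over all arrays. The 10 genes had 12 probe sets, since Gata2 and Zfpm1 had a second one, which served as a check. RNA of whole embryo propers was measured in 4 groups of 2 arrays each: Runx1 knockout and wild-type embryos at embryonic day 12 (E12), and Runx1 knockout and wild-type embryos at embryonic day 8.5 (E8.5). All mice were on a BALB/c background. Each array is labelled as RNA of a single embryo, and the sources used here do not give the sex or the litter. The replicates are described as biological, and the p-values measure only the spread between these samples. Each array holds RNA of a whole embryo proper, so that fewer blood cells and less RNA per blood cell cannot be told apart.

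These factors act together in the cells that make red cells and platelets. GATA1 and its relative GATA2 bind GATA motifs, TAL1 and its paralogue LYL1 are basic helix-loop-helix factors that bind E-boxes, and LMO2 and LDB1 are adaptors that join them into 1 complex on DNA. ZFPM1 (FOG1) is the cofactor that GATA1 needs in both lineages, KLF1 and NFE2 switch on globin and other late red-cell genes, NFE2 also serves platelet release, and GFI1B is a transcriptional repressor that both lineages need. Several of the genes are also used outside blood: Gata2 in trophoblast, endothelium and neurons, Tal1 and Lmo2 in endothelium, and Ldb1 in most tissues.

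The stretches before and around annotated start sites are shown for 4 of the genes, because each factor binds a short motif that can be looked for. These 4 read lower together in the E12 knockout. Lyl1 and Zfpm1, whose windows are not shown, read lower there too. The sequences are RefSeq promoter windows of mouse assembly GRCm38.p6, written 5′ to 3′ on the strand of the gene, with letters of a GATA motif (AGATAA or TGATAA, either strand) or a RUNX motif (TGTGGT or TGCGGT, either strand) in capitals. The windows lie at chrX:7967861-7968160 on the minus strand for Gata1, chr4:115056176-115056475 on the plus strand for Tal1, chr8:84901732-84902031 on the plus strand for Klf1 and chr2:28621933-28622232 on the minus strand for Gfi1b.
Gata1: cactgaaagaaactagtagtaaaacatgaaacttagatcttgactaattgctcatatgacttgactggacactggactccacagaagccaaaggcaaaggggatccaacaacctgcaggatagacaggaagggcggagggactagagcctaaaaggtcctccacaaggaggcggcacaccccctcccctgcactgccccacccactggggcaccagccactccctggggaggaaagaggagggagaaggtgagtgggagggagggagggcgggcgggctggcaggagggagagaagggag
Tal1: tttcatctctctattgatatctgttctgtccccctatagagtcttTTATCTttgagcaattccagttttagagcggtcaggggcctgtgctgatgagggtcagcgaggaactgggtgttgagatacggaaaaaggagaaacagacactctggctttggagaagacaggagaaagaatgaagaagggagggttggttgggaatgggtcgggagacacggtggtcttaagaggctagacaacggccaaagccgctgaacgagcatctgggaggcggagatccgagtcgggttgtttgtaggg
Klf1: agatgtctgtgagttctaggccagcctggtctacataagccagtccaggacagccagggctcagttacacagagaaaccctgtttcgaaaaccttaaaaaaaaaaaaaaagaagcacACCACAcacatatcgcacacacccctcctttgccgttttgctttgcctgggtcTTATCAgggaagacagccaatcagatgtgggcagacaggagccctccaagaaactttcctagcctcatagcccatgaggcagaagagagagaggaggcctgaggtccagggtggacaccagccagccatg
Gfi1b: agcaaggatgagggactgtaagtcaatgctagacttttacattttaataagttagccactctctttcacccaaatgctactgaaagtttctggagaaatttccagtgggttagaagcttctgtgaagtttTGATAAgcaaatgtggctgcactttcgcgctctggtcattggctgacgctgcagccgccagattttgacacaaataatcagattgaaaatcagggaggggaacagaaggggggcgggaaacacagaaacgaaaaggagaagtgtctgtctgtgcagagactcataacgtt

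In the windows shown, the GATA letters began at base -205 in Tal1, -80 in Klf1 and -120 in Gfi1b, counting the start site as 0. They did not occur in the Gata1 window. A second Tal1 window, at chr4:115057561-115057860, held neither GATA nor RUNX letters. The windows of Gata2, Lyl1 and Zfpm1 held neither as well, and Ldb1 had GATA letters in its window at chr19:46037021-46037320. The RUNX letters occurred once, at base -133 of Klf1, and did not overlap its GATA letters. In all, 8 of the 10 genes had 12 windows in the RefSeq table, which did not list Lmo2 and Nfe2. GATA letters were in 4 of the 12 windows, against 18.6% of all 32851 windows of the same length, and RUNX letters were in 1 of 12, against 22.4%. An E-box (CANNTG, either strand) was in 7 of 12, against 72.3%, and a CACC box (CCNCNCCC, either strand), the kind of sequence KLF1 binds, was in 10 of 12, against 49.5%. E-boxes and CACC boxes were counted whether or not they overlapped another motif. A match is a run of letters and not a measured binding site.

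The arrays differed in ways that touched these genes. Although labelled as embryo propers, the E8.5 arrays carried bright yolk sac endoderm genes: Cubn, an endocytic receptor of visceral endoderm, read 3.87 to 4.26 (log2 intensity) on the 4 E12 arrays, against 13.3 and 13.4 in E8.5 knockout and 13.1 and 13.0 in E8.5 wild type. Replicate 1 of the E8.5 wild type stood apart in trophoblast genes, whose mean of 14 measured genes was 7.50 there and 4.95 to 5.29 on the other 3 E8.5 arrays. Xist, the RNA of the inactive X, was high on 2 arrays: at E12 it read 5.33 and 10.3 in the knockout against 5.29 and 5.12 in wild type, whereas at E8.5 it read 5.93 and 6.04 in the knockout against 11.5 and 6.25 in wild type. Eif2s3y, a Y-linked gene, read 2.60 and 2.68 on the 2 arrays with high Xist, against 6.30 to 9.05 on the other 6. The brightest Runx1 probe set was not lower in the knockouts: at E12 it read 7.10 and 6.86 in the knockout and 7.06 and 6.39 in wild type, whereas at E8.5 it read 6.41 and 6.86 in the knockout and 6.16 and 5.95 in wild type. The sources used here do not say whether that probe set lies in the disrupted part. The 99th percentile of log2 intensity lay between 10.5 and 11.1 on the E12 arrays and between 12.2 and 12.3 on the E8.5 arrays, and whether the stages were scaled together is not known.

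All 10 genes read lower in E12 knockout embryos than in E12 wild type, and for each of them both knockout arrays lay below both wild-type arrays. Over all probe sets, 15.8% were separated in that direction at E12. The median of the 10 log2 differences (knockout minus wild type) was -1.23, against -0.0063 over all 18193 genes. The differences of 8 genes lay between -1.54 for Gata1 and -0.69 for Zfpm1, whereas Gata2 and Ldb1 differed by -0.31 and -0.18. None of the 10 passed a Benjamini-Hochberg adjusted p of 0.05 in limma, where 6 probe sets in all did (0.0133% of 45037). At an unadjusted p of 0.05 in the same fit, 4 of the 10 genes passed, against 1.58% of all probe sets.

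A second, uncorrected rule was an absolute moderated t above 3. At E12 it was passed by 3 of the 10 genes: Gata1, Gfi1b and Lmo2. All 3 were lower in the knockout, where 0.473% of all probe sets passed downwards and 0.655% in either direction. When the E12 arrays were fitted without the E8.5 arrays, whose replicates were further apart, 8 of the 10 genes passed it, against 1.44% of probe sets. Gata2 and Ldb1 were the exceptions, and none of the 10 reached an adjusted p of 0.05 in that fit either (limma, lowest 0.265, for Gata1).

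**Figure D1:**
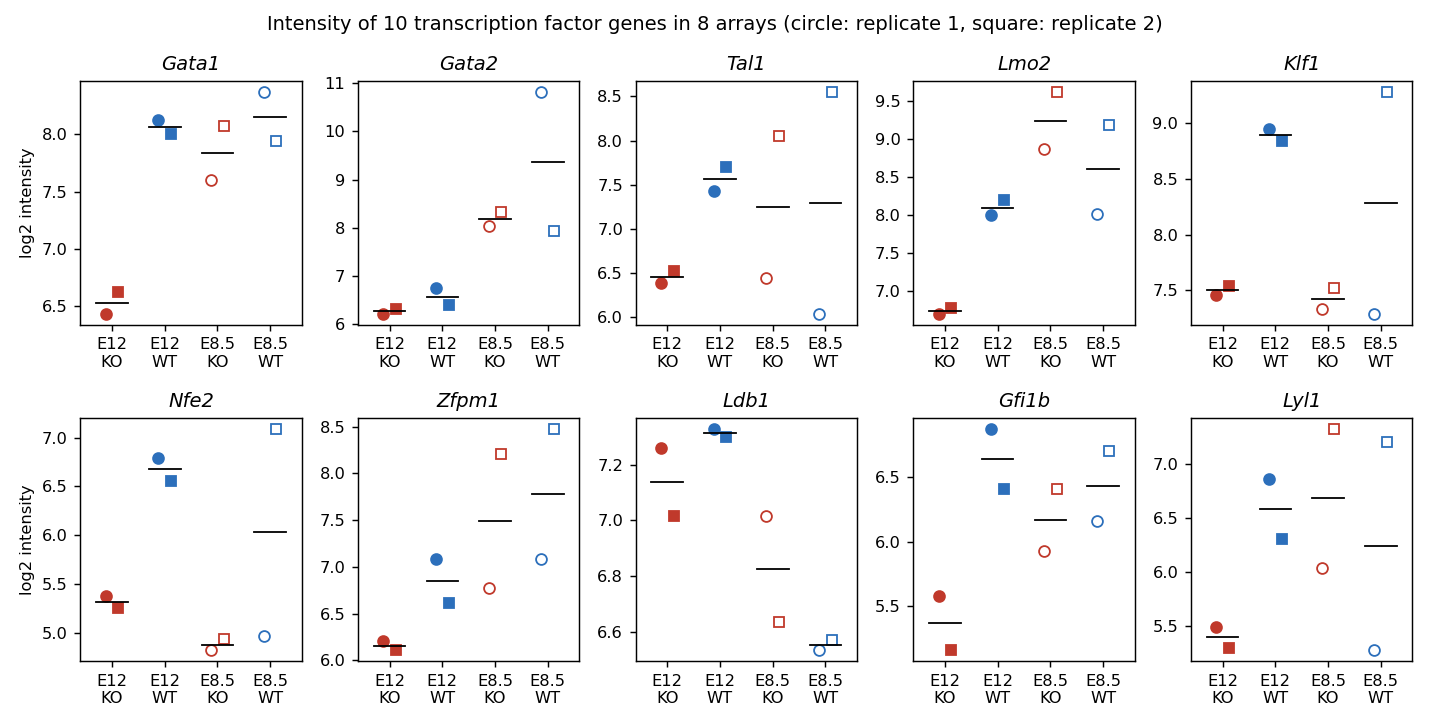
Log2 intensity of each gene on the 8 arrays, with circles for replicate 1, squares for replicate 2, red for knockout (KO), blue for wild type (WT), solid symbols at E12, hollow ones at E8.5 and a bar at each group mean; vertical axes differ between panels. At E12 both knockout arrays lie below both wild-type arrays in all 10 panels, whereas at E8.5 the replicates of a group are up to 2.88 apart.

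Gata1, whose product drives the maturation of red cells and megakaryocytes, read 6.43 and 6.62 in E12 knockout and 8.13 and 8.0 in E12 wild type. The knockout arrays were both low, close together and 1.38 or more below the wild-type arrays. The log2 difference was -1.54 (SE 0.23, t = -6.66), a 2.91-fold lower intensity in the knockout, with an adjusted p of 0.699 in limma. It passed an absolute t of 3 with each of the 8 arrays left out in turn, with differences of -1.63 to -1.45. Gata1 lies on the X chromosome, and the E12 knockout array with high Xist (replicate 2) was the higher of the 2 knockout arrays for Gata1. The part of embryo sex in the Gata1 difference was not tested.

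Gfi1b, which encodes a zinc finger transcriptional repressor needed to make red cells and platelets, read 5.58 and 5.16 in E12 knockout and 6.87 and 6.40 in E12 wild type. The groups did not overlap, and the replicates of each group were about equally far apart. The difference was -1.27 (SE 0.30, t = -4.25, adjusted p = 1.00 in limma). Without E12 knockout replicate 2 the difference was -1.06 and without E12 wild type replicate 1 it was -1.03, and in both cases the absolute t was no longer above 3.

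The complex's helix-loop-helix factors and adaptors came next. Lmo2, the bridging adaptor of the complex, read 6.70 and 6.77 in E12 knockout and 7.99 and 8.19 in E12 wild type, a difference of -1.36 (SE 0.41, t = -3.29). Without any 1 of the 4 E12 arrays its absolute t was no longer above 3 (differences of -1.46 to -1.26). Tal1, the stem-cell leukaemia factor needed for all blood lineages, read 6.38 and 6.52 in E12 knockout and 7.43 and 7.70 in E12 wild type, a difference of -1.11 (SE 0.84). Lyl1, its paralogue, read 5.49 and 5.29 in E12 knockout and 6.86 and 6.30 in E12 wild type, a difference of -1.19 (SE 0.68). For each of these genes the knockout arrays were both low and did not overlap the wild-type arrays. The large errors of Tal1 and Lyl1 came with the spread of their E8.5 replicates, which share the estimate: from the E12 arrays alone the SE was 0.18 for Tal1 and 0.24 for Lyl1. Ldb1, the dimerizing adaptor found in most cells, read 7.26 and 7.02 in E12 knockout and 7.33 and 7.30 in E12 wild type. Its higher knockout array lay only 0.041 below its lower wild-type array, and the difference of -0.18 (SE 0.19) was under its error.

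The red-cell activators were lower by similar amounts. Klf1, the activator of adult beta-globin, read 7.46 and 7.54 in E12 knockout and 8.94 and 8.84 in E12 wild type, a difference of -1.39 (SE 0.57, t = -2.44). Nfe2, the tissue-specific subunit of the NF-E2 dimer, read 5.38 and 5.26 in E12 knockout and 6.79 and 6.56 in E12 wild type, a difference of -1.36 (SE 0.61, t = -2.24). In both genes the replicates of a group lay within 0.24 of each other, and the groups were over 1 log2 unit apart. Neither passed an absolute t of 3 over all 8 arrays. Fitted on the E12 arrays alone, the same differences gave t = -8.71 for Klf1 and -7.82 for Nfe2.

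Zfpm1 and Gata2 gave answers that depended on the probe set. Zfpm1 read 6.21 and 6.11 in E12 knockout and 7.09 and 6.62 in E12 wild type on its brighter probe set, a difference of -0.69 (SE 0.58). On its other probe set the E12 groups overlapped and the difference was -0.13 (SE 0.23). Gata2, the factor of stem and progenitor cells, read 6.22 and 6.32 in E12 knockout and 6.75 and 6.40 in E12 wild type, a difference of -0.31 (SE 0.82), and on its other probe set the groups overlapped at a difference of -0.22 (SE 0.70). For these 2 genes the separation of the E12 groups was therefore seen on 1 of 2 probe sets.

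**Figure D2:**
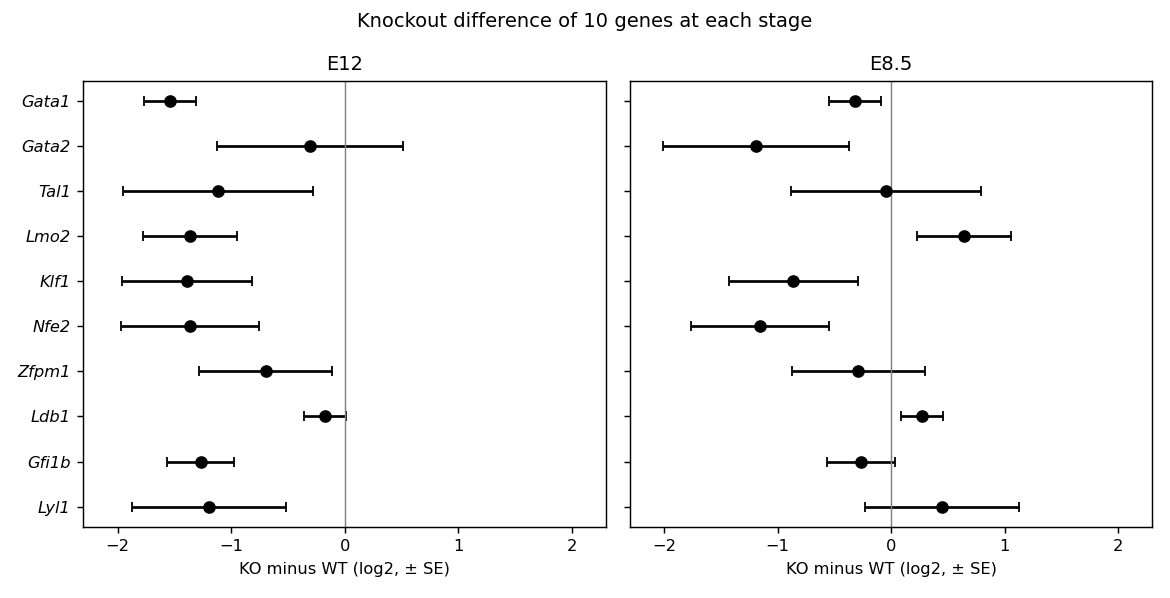
Knockout minus wild-type difference of each gene (log2, points) with its standard error from the fit over all 8 arrays (bars), at E12 on the left and at E8.5 on the right. All 10 points lie below 0 at E12, from -1.54 (Gata1) to -0.18 (Ldb1), whereas 7 of 10 do at E8.5 and the bars of Gata2, Tal1 and Lyl1 are wide.

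Other genes of the blood lineages were read beside the 10 factors, as lists of genes known to mark each cell type. The lists were chosen with earlier results of these data known. Among megakaryocyte and platelet genes, 22 of 23 measured read lower without Runx1 at E12, 10 of them with t below -3, and the median difference was -0.94. Pf4, a platelet chemokine, read 4.86 and 4.82 in E12 knockout and 10.3 and 10.8 in E12 wild type, and it was called (adjusted p = 0.0018 in limma). Ppbp, another platelet chemokine, and Tubb1, a platelet tubulin, were also called, with differences of -3.34 and -2.95 (adjusted p of 0.032 and 0.033 in limma). Plek, a kinase substrate of platelets and leukocytes, differed by -2.73 (t = -6.67) without being called. Of 22 macrophage and granulocyte genes, 19 were lower, 11 with t below -3, with a median of -0.91. Ctss, a lysosomal protease of macrophages, and the lysozyme Lyz1 were called, with differences of -3.29 and -3.41 (adjusted p of 0.0054 and 0.034 in limma). Mpo, the myeloperoxidase of granulocytes, and the Fc receptor gene Fcgr3 differed by -3.18 (t = -12.2) and -2.17 (t = -8.16) and were not called.

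Red-cell genes had a median difference nearer 0 than that of the 10 factors. Of 32 measured red-cell genes, 27 were lower in the E12 knockout, 5 with t below -3, and the median was -0.50. Those with the highest absolute t were Icam4, a red-cell adhesion receptor (-1.07), Steap3, an iron reductase (-1.51), Cited4, a transcriptional coactivator (-1.02), and Tfr2, a transferrin receptor (-0.70). Hbb-y, an embryonic globin, read 12.9 and 13.1 in E12 knockout and 12.6 and 13.3 in E12 wild type, so that its groups overlapped. Epor, the erythropoietin receptor, read 6.03 and 6.05 in E12 knockout and 6.79 and 6.82 in E12 wild type, so that its groups did not. Of the 40 red-cell genes listed, 32 were measured, and no adult beta-globin gene was among them. Hba-a1, an alpha-globin gene, read 4.90 and 5.31 in E12 knockout and 5.04 and 4.93 in E12 wild type. These values lie near the median probe set (5.14), so the list does not show whether adult globin RNA differed. Hbb-y, Epor and Hba-a1 were named after their values were seen.

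Of the factors that partner or resemble the 10, 20 of 34 were lower at E12, with a median of -0.12 and 1 gene with t below -3. That gene was Myb, a factor of definitive progenitors, at 5.81 and 5.80 in E12 knockout and 7.32 and 7.03 in E12 wild type, a difference of -1.37 (SE 0.43). Ikzf1, the gene of Ikaros, differed by -2.01 (t = -2.95), further than any of the 10 genes. It read 5.77 and 5.74 in E12 knockout and 7.90 and 7.64 in E12 wild type, and was named after its values were seen. Endothelial genes, read because Tal1, Lmo2 and Gata2 are also expressed in endothelium, were lower in 13 of 16 with a median of -0.19, and none had t below -3. Emcn, a sialomucin of veins and capillaries, was higher by 0.63 with t above 3. Mast cell genes (7 of 12 lower, median -0.034), trophoblast genes (8 of 14 lower, median -0.069) and yolk sac endoderm and fetal liver genes (7 of 14 lower, median 0.0084) had none past an absolute t of 3. Those with the highest absolute t were Kit, the stem cell factor receptor (-0.47), and Cpa3, a mast cell carboxypeptidase (-0.26), in the mast cell list, and Ctsq, a placental cathepsin (-0.15), and Peg10, an imprinted placental gene (-0.18), in the trophoblast list. In the yolk sac endoderm and fetal liver list they were Alb, the albumin gene (0.63), and Amn, the partner of Cubn (-0.19). Among 11 genes of neurons that use GATA2 and TAL1, 9 were higher and Gad2, a GABA-synthesizing enzyme, passed with 0.53. By mean over all arrays, 8 of the 12 mast cell, 8 of the 14 trophoblast and 6 of the 11 neuron genes lay below the median probe set (5.14). The same held for 10 of 23 megakaryocyte, 11 of 22 macrophage and granulocyte and 2 of 32 red-cell genes. Dim genes leave little room for a fall, which limits the comparison of list medians.

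The means of the megakaryocyte, macrophage and granulocyte, and red-cell lists were, like that of the 10 factors, lower on both E12 knockout arrays than on both E12 wild-type arrays. The mean of the 34 partner and related factors had the same order by a smaller amount. It was 7.56 and 7.57 in E12 knockout and 7.73 and 7.74 in E12 wild type. The mean log2 of the megakaryocyte list was 5.15 and 5.19 in E12 knockout and 6.72 and 6.58 in E12 wild type, that of the macrophage and granulocyte list 5.0 and 5.01 in E12 knockout and 6.26 and 5.95 in E12 wild type, and that of the red-cell list 8.08 and 8.17 in E12 knockout and 8.30 and 8.91 in E12 wild type. The mean of the 10 factors was 6.31 and 6.26 in E12 knockout and 7.42 and 7.23 in E12 wild type. The 10 factors and the megakaryocyte and macrophage lists were thus higher in wild type replicate 1, and the red-cell list in wild type replicate 2. What part the number of cells of each lineage had in the 10 differences was not tested.

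At E8.5 no common difference was seen. None of the 10 genes passed an adjusted p of 0.05 (0% of all probe sets did, in limma), an absolute t of 3 (2.06% of all probe sets) or an unadjusted p of 0.05 (4.73%). The median difference was -0.28, against -0.014 over all genes, with 7 of 10 lower. The groups did not overlap in 2 genes. Nfe2 was lower on both knockout arrays (16.1% of all probe sets were separated this way), at 4.82 and 4.94 in E8.5 knockout and 4.97 and 7.09 in E8.5 wild type. Ldb1 was higher on both (13.2% of probe sets were separated that way), at 7.01 and 6.63 in E8.5 knockout and 6.53 and 6.57 in E8.5 wild type. The difference of Nfe2 was -1.15 (SE 0.61), with wild type replicate 2 alone well above the other arrays, and that of Ldb1 was 0.27 (SE 0.19).

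For each of the 10 genes the replicates of at least 1 E8.5 group lay further apart than the means of the 2 genotypes. The deviations of 8 genes fell into 3 patterns. In the first, Gata2 was high on 1 array: it read 8.04 and 8.33 in E8.5 knockout and 10.8 and 7.94 in E8.5 wild type. The array with the high value was the wild type replicate 1 with bright trophoblast genes, among them Tpbpa, a spongiotrophoblast marker, at 4.24 and 4.21 in E8.5 knockout and 9.52 and 4.15 in E8.5 wild type. Of the 14 trophoblast genes 1 was lower on replicate 1 than on replicate 2 of the E8.5 wild type, Tpbpb (3.95 and 3.99). Peg10 was high on both of these arrays (6.29 and 6.09). Gata3, the relative of Gata2 that is also used in trophoblast, read 5.02 and 5.07 in E8.5 knockout and 8.32 and 5.29 in E8.5 wild type. The second Gata2 probe set had the same order, with 6.40 and 6.66 in E8.5 knockout and 8.59 and 6.16 in E8.5 wild type. The Gata2 difference of -1.19 (SE 0.82) became 0.25 without wild type replicate 1 and -2.63 without wild type replicate 2. In the last case it was called (adjusted p = 0.0026 in limma), as were 1942 probe sets in all. The part of trophoblast RNA in the Gata2 values was not tested.

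In the second pattern, Klf1 and Nfe2 were high on the other wild-type array. Klf1 read 7.33 and 7.52 in E8.5 knockout and 7.29 and 9.28 in E8.5 wild type, so that replicate 2 alone was high and replicate 1 lay at the knockout level. The mean of the 32 red-cell genes was also highest on that array, at 6.80 and 6.70 in E8.5 knockout and 6.92 and 8.01 in E8.5 wild type. Hbb-y read 9.21 and 9.74 in E8.5 knockout and 9.02 and 13.6 in E8.5 wild type. The Klf1 difference was -0.86 (SE 0.57), -1.85 without wild type replicate 1 and 0.13 without wild type replicate 2, and that of Nfe2 was -2.21 and -0.093 without the same arrays. Of the red-cell genes, 30 of 32 were lower in the E8.5 knockout with a median of -0.57. The 3 of them with t below -3 were Alad, a haem synthesis enzyme (-1.27), Steap3 (-1.46) and Ermap, an erythroid membrane protein (-2.52), and these were lower than both wild-type arrays on both knockout arrays.

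In the third pattern, Tal1, Lyl1, Zfpm1, Lmo2 and, by less, Gfi1b were low on replicate 1 and high on replicate 2 of both genotypes. Tal1 read 6.45 and 8.05 in E8.5 knockout and 6.04 and 8.55 in E8.5 wild type. Lyl1 read 6.04 and 7.33 in E8.5 knockout and 5.27 and 7.20 in E8.5 wild type. Zfpm1 read 6.77 and 8.20 in E8.5 knockout and 7.08 and 8.48 in E8.5 wild type, and Lmo2 8.86 and 9.62 in E8.5 knockout and 8.01 and 9.19 in E8.5 wild type. Within each genotype these 4 genes thus differed by 0.76 to 2.5 between replicates, against differences between genotypes of -0.046 (Tal1), 0.45 (Lyl1), -0.29 (Zfpm1) and 0.64 (Lmo2), with SEs of 0.84, 0.68, 0.58 and 0.41. Gfi1b read 5.92 and 6.41 in E8.5 knockout and 6.16 and 6.70 in E8.5 wild type, so that its replicates were 0.48 and 0.54 apart, against a difference between genotypes of -0.26 (SE 0.30).

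Other measures were also lower on replicate 1 and higher on replicate 2 of both genotypes. The mean of 14 yolk sac endoderm and fetal liver genes was 10.9 and 11.5 in E8.5 knockout and 10.2 and 11.3 in E8.5 wild type. The log2 ratio of the 3′ to the 5′ actin control probe set, a sign of RNA length after amplification, was 1.56 and 2.5 in E8.5 knockout and 1.48 and 2.61 in E8.5 wild type, and that of GAPDH was 2.16 and 2.65 in E8.5 knockout and 2.25 and 2.56 in E8.5 wild type. The GAPDH ratio had the same order at E12, at 2.38 and 2.65 in the knockout and 2.20 and 2.57 in wild type. The actin ratio had the opposite order at E12, at 1.69 and 1.45 in the knockout and 1.84 and 1.43 in wild type. The endothelial list had a mean of 6.87 and 6.80 in E8.5 knockout and 6.67 and 6.93 in E8.5 wild type, but its genes went both ways. In wild type 11 of the 16 were lower on replicate 1, whereas 5 of 16 were lower on replicate 1 in both genotypes. Tek, the angiopoietin receptor, read 8.41 and 7.51 in E8.5 knockout and 6.28 and 8.0 in E8.5 wild type, and Erg, an endothelial ETS factor, 6.22 and 6.62 in E8.5 knockout and 4.34 and 6.25 in E8.5 wild type. Cdh5, the cadherin of endothelial junctions, had the opposite order in wild type, at 5.70 and 6.55 in E8.5 knockout and 10.1 and 7.08 in E8.5 wild type, highest on the array with bright trophoblast genes. These 3 were named after their values were seen. The part of yolk sac tissue, endothelium or RNA length in the values of Tal1, Lyl1, Zfpm1, Lmo2 and Gfi1b was not tested.

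Gata1 and Ldb1 followed none of these patterns. Gata1 read 7.60 and 8.07 in E8.5 knockout and 8.37 and 7.94 in E8.5 wild type, with overlapping groups and a difference of -0.32 (SE 0.23). Its highest value was on wild type replicate 1, the E8.5 array with high Xist (11.5) and bright trophoblast genes. The part of embryo sex in the E8.5 Gata1 values was not tested.

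The other lists held few genes past an absolute t of 3 at E8.5. Endothelial genes were higher in the knockout in 11 of 16, with Kdr, a VEGF receptor, and Ramp2, an adrenomedullin receptor subunit, past the threshold at 0.71 and 0.67. Kdr read 9.74 and 9.40 in E8.5 knockout and 8.77 and 8.95 in E8.5 wild type. Of 34 partner factors 16 were lower and none passed, and those with the highest absolute t were Rcor1, a corepressor that GFI1B recruits (-0.61), and Myb (-0.91). Of 23 megakaryocyte and platelet genes 13 were lower, with a median of -0.0064 and none past the threshold. Those with the highest absolute t were Itgb3, the platelet integrin subunit (-3.28, SE 1.29), which read 4.63 and 3.79 in E8.5 knockout and 9.74 and 5.24 in E8.5 wild type, and F2r, a thrombin receptor (0.69). The high Itgb3 value was on wild type replicate 1, the array with bright trophoblast genes. Of 22 macrophage and granulocyte genes 14 were lower and Fcgr3 passed, higher by 1.01. In the trophoblast list 13 of 14 were lower and Peg10 passed at -1.90, and in the yolk sac endoderm and fetal liver list 13 of 14 were higher and the fibrinogen gene Fgg passed at 1.16. No mast cell gene and no gene of the neuron list passed. Those with the highest absolute t were Mcpt4, a mast cell protease (0.20), and Tph1, a serotonin synthesis enzyme (0.21), in the mast cell list, and Lhx5, a LIM homeobox gene (0.36), and Gata3 (-1.76) in the neuron list.

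**Figure D3:**
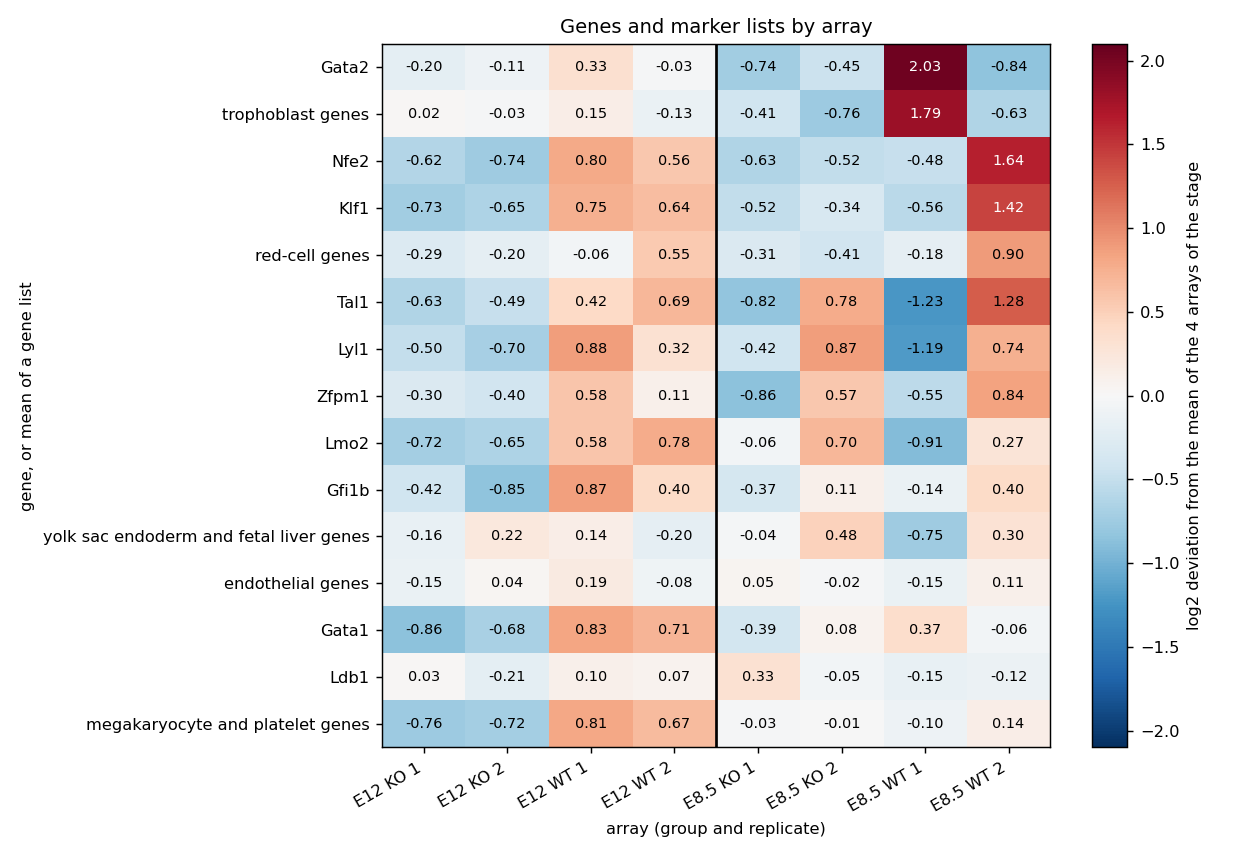
Deviation of each gene, or of the mean of a marker list, from the mean of the 4 arrays of its stage (log2, red above and blue below), by array, with knockout (KO) columns left of wild-type (WT) columns and a line between the stages. The lists shown are the trophoblast, red-cell, yolk sac endoderm and fetal liver, endothelial, and megakaryocyte and platelet lists. At E12 each of the 10 genes is negative in both knockout columns except Ldb1 on replicate 1 (0.033), whereas at E8.5 Gata2 and the trophoblast list stand out on wild type replicate 1 (2.03 and 1.79), Nfe2, Klf1 and the red-cell list on wild type replicate 2 (1.64, 1.42 and 0.90), while Tal1, Lyl1, Zfpm1, Lmo2 and Gfi1b are higher on replicate 2 than on replicate 1 of both genotypes.

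The difference between the stages was then tested as the E12 knockout difference minus the E8.5 knockout difference. It was negative for 9 of the 10 genes, with a median of -0.77, against 0.016 over all genes. None of the 10 passed an adjusted p of 0.05 (2 probe sets did, 0.00444%, in limma). Gata1 and Lmo2 passed both an unadjusted p of 0.05 (1.87% of probe sets) and a t below -3 (0.426% of probe sets downwards, 0.688% in either direction). The E12 minus E8.5 value was -1.22 for Gata1 (SE 0.33, unadjusted p = 0.0083 in limma), and -2.0 for Lmo2 (SE 0.59, unadjusted p = 0.012 in limma). With 1 array left out in turn, Gata1 stayed past an absolute t of 3 in 6 of 8 fits (not without E8.5 knockout replicate 2, at -0.99, or E12 knockout replicate 1, at -1.13) and Lmo2 in 3 of 8. The groups of Ldb1 did not overlap at either stage and lay in opposite order, but its difference of -0.45 (SE 0.26) did not pass (unadjusted p = 0.13 in limma). The Lmo2 value was -1.41 without E8.5 wild type replicate 1 and -2.59 without E8.5 wild type replicate 2.

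Stages were also compared within each genotype. In the knockout Gata1 fell by 1.31 (SE 0.23, adjusted p = 0.010 in limma) and Lmo2 fell by 2.51 (SE 0.41, adjusted p = 0.0082 in limma). In wild type the E12 minus E8.5 differences of these genes were -0.088 (SE 0.23) and -0.51 (SE 0.41). In each genotype 2 of the 10 genes were called, where calls were common over the whole array: 25.6% of all probe sets in the knockout (14.1% of all downwards) and 27.8% in wild type. With the arrays brought to the same distribution by quantile normalization the knockout differences were -0.95 for Gata1 (adjusted p = 0.042 in limma) and -1.95 for Lmo2 (adjusted p = 0.018 in limma), and the wild-type differences turned to 0.66 and 0.24. The falls of Gata1 and Lmo2 in the knockout were no longer called without E8.5 knockout replicate 2 or without either E12 knockout array (adjusted p of 0.058 to 0.085 in limma).

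In wild type the called genes were Gata2, which fell by 2.80 (SE 0.82, adjusted p = 0.046 in limma), and Ldb1, which rose by 0.76 (SE 0.19, adjusted p = 0.026 in limma). The Gata2 difference was -1.36 without the array rich in trophoblast genes and -4.24 without the other E8.5 wild-type array. Over all 8 arrays, the fall of Gata2 was not called after quantile normalization or with the mean of its probe sets (adjusted p of 0.084 and 0.062 in limma). In the knockout the Gata2 difference was -1.92 (SE 0.82, adjusted p = 0.14 in limma), with both E12 arrays below both E8.5 arrays. With 1 array left out in turn, Gata2 was called in 2 of 8 fits and Ldb1 in 3 of 8. The Ldb1 rise was 1.15 after quantile normalization (adjusted p = 0.0101 in limma), and at 0.76 it was not called with a trend in the prior variance (adjusted p = 0.074 in limma). Klf1 and Nfe2 had E12 minus E8.5 differences of 0.077 and 0.44 in the knockout and 0.61 and 0.64 in wild type, none past an adjusted p of 0.05.

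**Figure D4:**
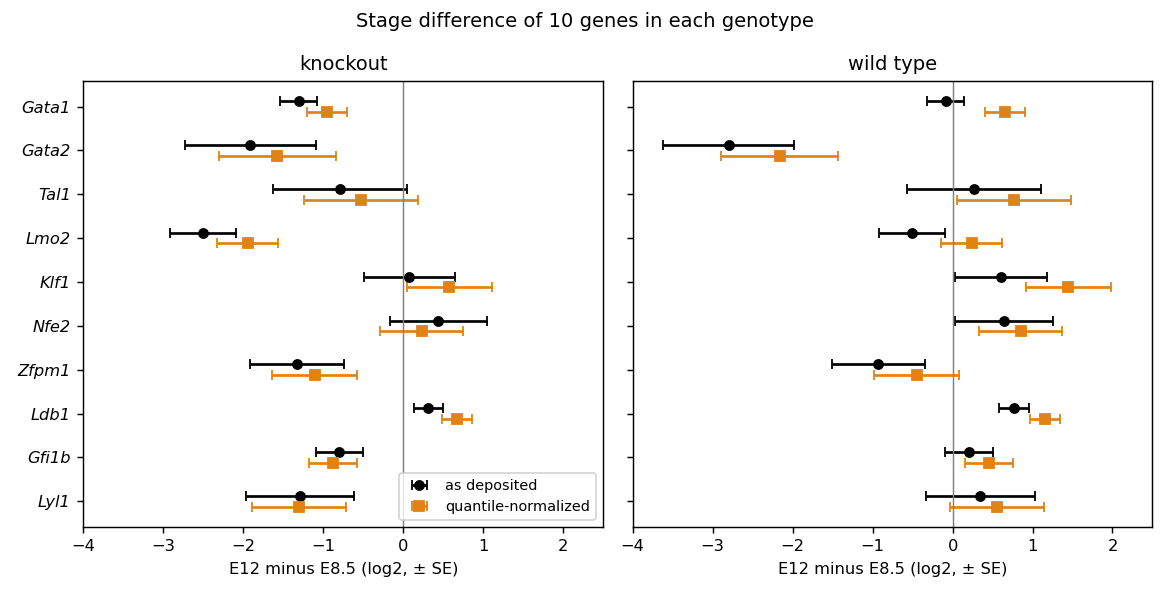
E12 minus E8.5 difference of each gene (log2, points) with its standard error (bars) in knockout on the left and wild type on the right, for values as deposited (black circles) and after quantile normalization over the 8 arrays (orange squares). Gata1 and Lmo2 lie below 0 in the knockout under both scalings (-1.31 and -0.95 for Gata1), whereas in wild type they change side (-0.088 and 0.66 for Gata1).

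The 6 genes whose values spanned more than 2 log2 units over the 8 arrays were set against every other gene, taking the mean absolute difference between the 2 genes' values after each was centred on its own mean over the 8 arrays. Nearest to Nfe2 was Klf1 (0.13), followed by Redrum (0.18), a long noncoding RNA gene, and Mrap (0.19). Nearest to Tal1 was its paralogue Lyl1 (0.30), followed by Fam78a (0.32) and Ikzf1 (0.34), the gene of the lymphoid factor Ikaros. Thus for 2 of the 6 genes the closest pattern among all genes measured belonged to another of the 10 factors. Nearest to Lmo2 were Cpox, a haem synthesis enzyme (0.29), Rbks (0.29) and Cyba, a subunit of the phagocyte oxidase (0.31). Nearest to Lyl1 were Mrc1, the macrophage mannose receptor (0.26), Arrb1 (0.28) and Mta1 (0.29). Nearest to Zfpm1 were Card6 (0.15), Scand1 (0.16) and Limd1 (0.17), and nearest to Gata2 were AI661453 (0.21), 2310030G06Rik (0.21) and Smpdl3b (0.21), each highest on the E8.5 wild-type array with bright trophoblast genes. These distances describe 8 arrays that share their stages and their outlying E8.5 arrays.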

How the data were processed

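RNA of Runx1 knockout and wild-type embryo propers was amplified, labelled and hybridized to 8 Affymetrix mouse genome arrays. The authors applied the Robust Multi-array Analysis algorithm to the probe intensities. Their deposited intensities are linear, 1 per probe set, and the sources used here do not say if all arrays were normalized together. The log2 of each intensity was taken without a pseudocount. Of 45101 probe sets, 64 controls were left out and 45037 were tested without a filter. The platform annotation gave 1 gene symbol to 34945 probe sets, several to 932 and none to 9160. The lmFit and eBayes functions of limma 3.58.1 (R 4.3.3) estimated 1 mean per group from all 8 arrays together, after a check on simulated data. Calls used either an adjusted p below 0.05, by Benjamini-Hochberg over the 45037 probe sets, or an absolute moderated t above 3, the threshold in the study's methods. The 10 genes and the gene lists were chosen with earlier results of these data known. All 10 genes were named, and from each list the genes past an absolute t of 3 in a knockout comparison, up to 4, and where none passed the 2 nearest to it. Cubn and Tpbpa were named outside this rule. Lists are given by counts and medians. Alternatives were quantile normalization, a filter on dim probe sets, each stage fitted alone, the replicate number as a block, a trend in the prior variance, the mean of a gene's probe sets and leaving out each array. The number of arrays limits the precision.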

Additional observations from a re-analysis of the deposited data

Results flagged for a closer look

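The difference of the knockout effect between the stages was past an uncorrected threshold for Gata1 and Lmo2, and Ldb1 had its groups in opposite order at the 2 stages; none of the 3 passed an adjusted p of 0.05. The E12 knockout difference minus the E8.5 knockout difference was -1.22 for Gata1 and -2.0 for Lmo2, both past an absolute t of 3 in limma (adjusted p of 1.00 for both). For Ldb1 it was -0.45, with both knockout arrays below both wild-type arrays at E12 and above them at E8.5, and the test of that difference did not pass either threshold (unadjusted p = 0.13 in limma). The nearest arrays of the 2 genotypes were only 0.041 apart at E12 and 0.065 apart at E8.5. The knockout replicates were 0.24 and 0.38 apart at these stages.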

How the results depend on the processing

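The 10 genes kept their lower readings at E12 under every alternative run, and none of them was called at an adjusted p of 0.05 there. By construction, fewer features were counted without the dimmest 50% of the probe sets and with the mean of a gene's probe sets. An absolute t above 3 at E12 was passed by 5 of the 10 genes and 464 probe sets after quantile normalization, by 8 genes and 648 probe sets with each stage fitted alone, and by 70 probe sets without the dim probe sets. An adjusted p of 0.05 at E12 was passed by 2 probe sets without the dim probe sets, by 2 with each stage alone and by 2 with the replicate block. Deviations of same-numbered arrays had a correlation of 0.37 between the 2 E8.5 groups. Between the other pairs of groups it was -0.12 to 0.17. The replicate block changed no call of the 10 genes. At E8.5 an absolute t above 3 was passed by 328 probe sets without the dim probe sets and by 578 features with the mean of a gene's probe sets. In that setting each probe set without a single gene symbol stayed a feature of its own, beside the genes. The difference between stages was past an absolute t of 3 in 1 of the 10 genes with a variance trend and in 81 probe sets without the dim probe sets, and past an adjusted p of 0.05 in 1 probe set without the dim probe sets, 0 with the replicate block and 7 with the trend. Between stages, 7496 such features in the knockout and 7967 in wild type were called with the mean of a gene's probe sets. Of the 10 genes, 1 was called in wild type after quantile normalization (Ldb1), with the trend (Gata2) and with the mean of probe sets (Ldb1). Quantile normalization turned the wild-type stage difference to 0.66 for Gata1 and 0.24 for Lmo2, and the cause was not tested.

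With 1 array left out, the lone array of its group is assumed to vary like the others. At E12, 1 to 5 of the 10 genes and 129 to 2131 probe sets then passed an absolute t of 3, and 0 to 12 probe sets an adjusted p of 0.05. At E8.5 these were 0 to 2 genes and 667 to 4719 probe sets, and 0 to 1 gene and 0 to 1942 probe sets, the highest without wild type replicate 2. For the difference between stages they were 0 to 8 genes and 162 to 2933 probe sets, and 0 to 3 genes and 0 to 718 probe sets, again highest without E8.5 wild type replicate 2. Between stages 0 to 4 genes and 2323 to 16078 probe sets were called in the knockout, and 0 to 4 genes and 6122 to 14204 probe sets in wild type. The E8.5 knockout difference ranged from -2.63 to 0.25 for Gata2, -1.3 to 1.21 for Tal1, -1.85 to 0.13 for Klf1, -1.01 to 0.42 for Zfpm1, -0.53 to 0.005 for Gfi1b and -0.52 to 1.41 for Lyl1. The difference between stages ranged from -0.56 to 2.32 for Gata2, -2.32 to 0.18 for Tal1, -1.52 to 0.46 for Klf1, -1.27 to 0.85 for Nfe2 and -1.12 to 0.31 for Zfpm1. The wild-type stage difference ranged from -0.3 to 0.13 for Gata1, -0.98 to 1.52 for Tal1, -1.1 to 0.081 for Lmo2, -0.39 to 1.6 for Klf1, -0.42 to 1.7 for Nfe2, -0.06 to 0.48 for Gfi1b and -0.62 to 1.31 for Lyl1, and the knockout stage difference from -1.6 to 0.005 for Tal1 and -0.016 to 0.17 for Klf1.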
